A study of Mus musculus with 6 samples.

Results

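DNA replication and S-phase genes were examined in testes taken from mice 5 days postpartum (dpp). The genes were 51 rows of a table of 54532 genes, chosen by gene symbol, and their products load the replicative helicase, copy the DNA, supply deoxynucleotides or bring cells into S phase. The table held 3 control (Ctrl) testis samples and 3 conditional knockout (cKO) testis samples. In the cKO mice (*Vasa*-Cre *Srsf1* Fl/del), exons 2, 3 and 4 of *Srsf1* were flanked by loxP sites, and Cre under the *Vasa* promoter removed them in germ cells. By this genotype the other allele was already deleted, so somatic cells of the testis kept the floxed copy alone. *Srsf1* encodes a splicing factor. The labels called the other group Ctrl without stating its alleles, and neither the strain of these 6 samples nor the pooling of animals was given. The study's methods named 3 biological replicates per condition, whereas the labels did not tie samples to animals, so p-values measure only the spread between these samples.

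Replication proceeds in ordered steps. The origin recognition complex marks a start site, CDC6 and CDT1 load the ring-shaped MCM helicase there in G1, and the kinase CDC7 with its partner DBF4, together with CDC45 and the GINS complex, turns the helicase on in S phase. Polymerase alpha-primase lays down primers, polymerases delta and epsilon extend them on the sliding clamp PCNA, RPA covers the unwound strand, and FEN1 and DNA ligase 1 join the lagging-strand pieces. In the neonatal testis, Sertoli cells divide and germ cells leave the quiescence of gonocytes and resume division, so more than one cell type can contribute these transcripts.

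Each library held between 15448191 and 18964743 reads recovered from FPKM (fragments per kilobase, scaled between libraries), with the largest number in Ctrl 2. The scale of each library followed the median over genes of its read ratios to the other libraries, not its total reads. *Srsf1* measured between 82.1 and 89.1 FPKM in the Ctrl samples and between 45.1 and 51.6 FPKM in the cKO samples (adjusted p = 0.0578), so each sample matched its label. The testis label was checked against markers, since an extraction text in the labels mentioned retinas. The sum over 12 retina markers was between 0.571 and 1.07 FPKM in all 6 samples, whereas 16 Sertoli-cell markers summed to between 2606 and 3828 FPKM. Summed germ-cell markers (24 genes) were between 218 and 526 FPKM in Ctrl and between 57.7 and 109 FPKM in cKO, and no germ-cell marker was at 0 in any sample. Of the 23 germ-cell markers tested, 20 had all cKO values below all Ctrl values, where the background over all genes tested was 12.8%. The median log2 fold change of these markers was -1.39. Ctrl 2 held the highest value of its group for 23 of the 24.

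The 51 genes were lower on average in cKO testes in 50 of 51 cases, by small amounts, and no single gene passed the threshold. The median log2 fold change of cKO over Ctrl was -0.22, between -0.87 for *Orc1* and 0.01 for *Orc4*, whereas the median of all 16206 genes tested was 0.00, with 49.5% of them lower on average. Fold changes are differences in mean log2(FPKM + 1), a scale that understates changes of low genes. All 51 genes passed the filter of a mean of at least 0.5 FPKM. In limma with Benjamini-Hochberg adjustment over all genes tested, 0 of the 51 were lower and 0 were higher at an adjusted p of 0.05 or less, where the background was 0% lower and 0% higher. The adjusted p of the 51 genes lay between 0.105 and 0.989. At an unadjusted p under 0.05, 23 were lower and 0 higher, where 9.31% of all genes tested were lower and 6.6% were higher. The values of all cKO samples lay below those of all Ctrl samples for 21 of the 51 (41.2%), and above them for 0, where the background was 12.8% below and 10.3% above. With the fit restricted to protein-coding genes, 1 gene was called lower, *Orc1*, where the background was 1.33% lower and 0.28% higher. In limma voom on the recovered reads, 0 were called, where the background was 0.358% lower and 0.136% higher. Whole testes cannot tell fewer cells of a type from less RNA per cell.

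The counts varied with the library left out. Without cKO 3, all cKO values lay below all Ctrl values for 36 of 51 genes and for 19.4% of all genes tested, counts that can only stay or grow as samples are removed. At an unadjusted p under 0.05, 13 of the 51 genes were lower without Ctrl 2, where the background was 6.69%. The count was 15 without cKO 1 (background 6.22%) and 12 without cKO 2 (background 7.51%). The median log2 fold change stayed between -0.29 and -0.16 over the 6 fits that left out 1 sample each. The adjusted p of all 51 genes was above 0.05 in each of those 6 fits.

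**Figure D1:**
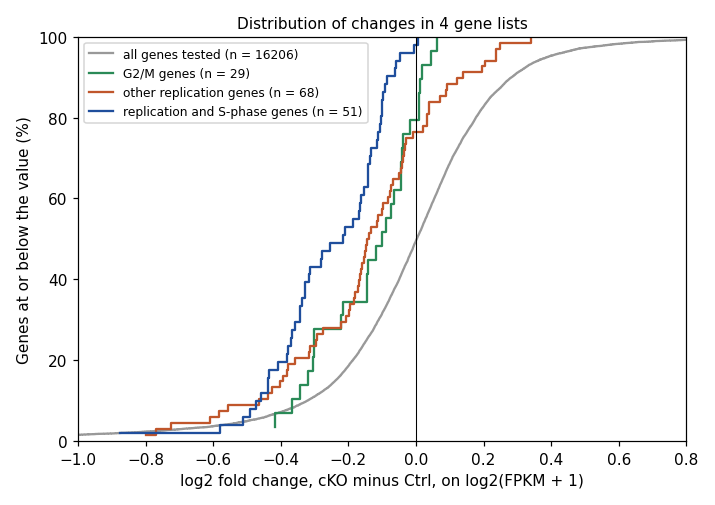
Cumulative share of genes (percent, vertical axis) at or below each log2 fold change of cKO minus Ctrl on log2(FPKM + 1) (horizontal axis) for all 16206 genes tested, 29 G2/M genes, 68 other replication genes and the 51 replication and S-phase genes. The line of the 51 genes lies to the left, with 98.0% of them below 0 against 49.5% of all genes tested.

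The promoters of these genes are shown because genes of this group are known targets of E2F transcription factors, which drive S-phase genes, and of NF-Y, which binds the letters CCAAT. Windows of 250 bases before to 50 after a RefSeq start (GRCm38.p6) were found for 42 of the 51 genes. No window was matched for *Ccne2*, *Gmnn*, *Mcm4*, *Rfc2*, *Pole*, *Gins4*, *Prim2*, *Gins1* and *Gins2*. The windows were searched on both strands for E2F letters (TTTCCCGC, TTTCGCGC, TTTGCCGC or TTTGGCGC), for CCAAT, and for TTTGAA, the core of the cell-cycle homology region (CHR) of many G2/M promoters. Matches of one motif may overlap those of another. The 250 bases before the start are given 5′ to 3′ on the gene's strand, with E2F and CCAAT matches on either strand in capitals, for the 4 genes with the largest log2 fold changes among those with a window and no overlap between groups, and for *Mcm6*, the most abundant MCM gene with 3 E2F matches. The stretches lay at chr4:108579204-108579453 (plus strand) for *Orc1*, chr2:5012792-5013041 (minus strand) for *Mcm10*, chr4:132768110-132768359 (plus strand) for *Rpa2*, chr16:18811973-18812222 (minus strand) for *Cdc45* and chr1:128359706-128359955 (minus strand) for *Mcm6*.
Orc1: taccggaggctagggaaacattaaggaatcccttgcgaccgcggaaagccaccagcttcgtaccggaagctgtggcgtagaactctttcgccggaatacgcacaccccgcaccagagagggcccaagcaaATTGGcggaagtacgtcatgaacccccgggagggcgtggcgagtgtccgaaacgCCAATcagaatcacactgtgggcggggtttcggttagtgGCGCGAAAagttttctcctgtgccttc
Mcm10: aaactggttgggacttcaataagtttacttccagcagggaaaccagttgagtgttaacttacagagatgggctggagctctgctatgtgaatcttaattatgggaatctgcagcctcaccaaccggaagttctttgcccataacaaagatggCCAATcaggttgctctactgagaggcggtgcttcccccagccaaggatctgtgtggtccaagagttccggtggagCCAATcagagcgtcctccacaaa
Rpa2: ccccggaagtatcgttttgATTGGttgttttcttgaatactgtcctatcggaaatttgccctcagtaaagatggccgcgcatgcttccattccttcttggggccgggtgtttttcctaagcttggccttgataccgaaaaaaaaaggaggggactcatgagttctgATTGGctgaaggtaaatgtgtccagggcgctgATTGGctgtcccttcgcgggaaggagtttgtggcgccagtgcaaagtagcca
Cdc45: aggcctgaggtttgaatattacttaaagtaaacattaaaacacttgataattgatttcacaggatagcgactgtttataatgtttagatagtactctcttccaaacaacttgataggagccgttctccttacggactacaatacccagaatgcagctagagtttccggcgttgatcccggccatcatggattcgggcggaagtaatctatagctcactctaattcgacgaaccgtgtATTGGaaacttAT
Mcm6: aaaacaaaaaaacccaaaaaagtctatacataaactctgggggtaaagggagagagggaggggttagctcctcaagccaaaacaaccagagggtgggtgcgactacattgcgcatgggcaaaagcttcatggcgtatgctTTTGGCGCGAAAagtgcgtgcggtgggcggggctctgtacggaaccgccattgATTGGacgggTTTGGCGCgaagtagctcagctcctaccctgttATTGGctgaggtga

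In the *Orc1* stretch, the E2F match began 27 bases before the start, downstream of 2 CCAAT matches. *Mcm6* held 3 E2F matches in this stretch, and those of the first 2 overlapped. *Mcm10*, *Rpa2* and *Cdc45* held CCAAT matches but no E2F letters in their windows. The capitals AT at the end of the *Cdc45* stretch are the first bases of a CCAAT match that crosses the start. Over the 42 genes, 15 (35.7%) held E2F letters, whereas 2.6% of 27025 genes with a window and 4.74% of 10873 tested genes with a window did. The 15 genes were *Orc1*, *Orc3*, *Cdc6*, *Cdt1*, *Mcm3*, *Mcm5*, *Mcm6*, *Mcm7*, *Gins3*, *Pola1*, *Pold1*, *Pold3*, *Pole2*, *Rfc3* and *Lig1*. CCAAT was found in 24 of the 42 (57.1%), against 41.1% of all genes with a window and 43% of tested genes with a window. The CHR letters were found in 7 (16.7%), against 20.2% of all genes and 14.1% of tested genes with a window. Among 26 G2/M genes with a window, the E2F letters were in 1 (3.85%) and the CHR letters in 20 (76.9%). E2F letters were in 8 of the 18 genes whose groups did not overlap and in 7 of the 24 whose groups overlapped. A match is a description of letters, and no binding was measured here.

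The origin recognition complex has 6 subunits, and 2 of its genes, *Orc1* and *Orc2*, had all cKO values below all Ctrl values. Beside this count and those of the role groups below, all of them small, 12.8% of all genes tested were lower without overlap. The median log2 fold change of the 6 genes was -0.13. *Orc1* (chr4:108579423-108614833, plus strand, GRCm38), the subunit that varies through the cell cycle and binds CDC6, measured 6.20, 8.54 and 5.18 FPKM in Ctrl 1, 2 and 3 against 2.996, 2.79 and 3.55 FPKM in cKO 1, 2 and 3, the order in which values of single samples are given throughout. Its cKO values lay well below all Ctrl values, at 46.9% of the Ctrl mean, with a log2 fold change of -0.87 (SE 0.169, 95% interval -1.27 to -0.48, adjusted p = 0.105). When limma was fitted to protein-coding genes alone, the adjusted p of *Orc1* was 0.0399. *Orc2*, a core subunit, measured 14.3, 20.3 and 16.5 FPKM across Ctrl and 12.9, 14.0 and 12.9 FPKM across cKO (log2 fold change -0.33, SE 0.128, adjusted p = 0.290). The groups of *Orc2* were separated by a narrow gap, and 29.8% of its exon bases overlapped *Nif3l1* on the opposite strand, as 10.8% of those of *Orc1* overlapped *Gm12743*. The strand setting of the read counting was not stated, so reads of such overlaps cannot be assigned with certainty.

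*Orc6*, the most abundant of the 6 genes in every sample, measured 26.9, 35.9 and 28.4 FPKM across Ctrl and 24.5, 25.7 and 30.6 FPKM across cKO. Its groups overlapped through cKO 3. The remaining subunits were close to their Ctrl levels. *Orc3* averaged 15.4 ± 1.72 (SD, n = 3) FPKM in Ctrl and 14.4 ± 1.42 in cKO, and *Orc5* averaged 7.19 ± 0.958 and 6.59 ± 0.0928. *Orc4* averaged 8.48 ± 0.440 FPKM in Ctrl and 8.54 ± 0.754 in cKO, with a log2 fold change of 0.01 (95% interval -0.21 to 0.23), the only one of the 51 genes above 0 in this fit. Its sign turned under 5 of 16 alternative fits. *Orc1* was thus at 0.778 ± 0.160 of *Orc4* in Ctrl and at 0.367 ± 0.0572 in cKO, a ratio chosen after the values were seen.

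For the licensing genes the median log2 fold change was -0.38, and 1 of the 3 had no overlap between groups. *Cdc6*, an ATPase that brings the helicase to the origin, measured 7.17, 8.13 and 6.31 FPKM across Ctrl and 5.89, 4.69 and 5.32 FPKM across cKO (log2 fold change -0.38, SE 0.119, adjusted p = 0.213). All cKO values of *Cdc6* lay below the lowest Ctrl value. *Gmnn* encodes geminin, the inhibitor of CDT1 that blocks a second round of licensing, and was the most abundant of the 3 genes in every sample. It measured 37.7, 52.2 and 45.5 FPKM across Ctrl and 32.2, 28.2 and 38.8 FPKM across cKO (log2 fold change -0.44, SE 0.155, adjusted p = 0.256). The value of cKO 3 stood above that of Ctrl 1. *Cdt1*, the loading factor held by geminin, averaged 18.6 ± 2.09 FPKM in Ctrl and 15.3 ± 2.93 in cKO, also with overlapping groups. *Gmnn* stood at 2.41 ± 0.143 times *Cdt1* in Ctrl and at 2.17 ± 0.141 times in cKO, a ratio also chosen after the values were seen.

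The 6 subunit genes of the MCM helicase, the ring that unwinds DNA at the fork, had log2 fold changes between -0.41 and -0.21 and a median of -0.36. All cKO samples lay below all Ctrl samples for 4 of the 6. *Mcm7* measured 59.0, 64.4 and 50.1 FPKM across Ctrl and 44.2, 40.7 and 44.6 FPKM across cKO (log2 fold change -0.41, SE 0.108, adjusted p = 0.166). The gap between its groups was the widest of the 6 on the log scale. For *Mcm7*, 16.5% of the 50-base stretches of its transcripts also occurred in other genes, most of all in the copy *Gm5487*. Reads may be split between such genes.

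*Mcm2* measured 27.2, 30.2 and 25.2 FPKM across Ctrl and 20.3, 19.2 and 23.97 FPKM across cKO (log2 fold change -0.37, SE 0.111, adjusted p = 0.205). *Mcm5* measured 51.2, 53.7 and 43.0 FPKM across Ctrl and 40.1, 34.3 and 41.5 FPKM across cKO (log2 fold change -0.34, SE 0.117, adjusted p = 0.240). *Mcm4* measured 41.9, 47.0 and 44.7 FPKM across Ctrl and 32.5, 33.1 and 41.6 FPKM across cKO (log2 fold change -0.32, SE 0.113, adjusted p = 0.258). In these 3 genes the groups were separated, and cKO 3 was the cKO sample nearest to Ctrl. The groups of *Mcm4* nearly touched, at 41.6 FPKM in cKO 3 and 41.9 FPKM in Ctrl 1. *Mcm6*, the most abundant of the 6 in every sample, measured 66.3, 79.9 and 73.1 FPKM across Ctrl and 62.5, 58.9 and 67.4 FPKM across cKO. Here only cKO 3 overlapped Ctrl, through Ctrl 1. *Mcm3* averaged 50.95 ± 7.14 FPKM in Ctrl and 39.2 ± 5.72 in cKO, and its cKO 3 value stood above that of Ctrl 3. Per length, *Mcm2* was the lowest of the 6 in every sample, although the 6 proteins form one ring.

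**Figure D2:**
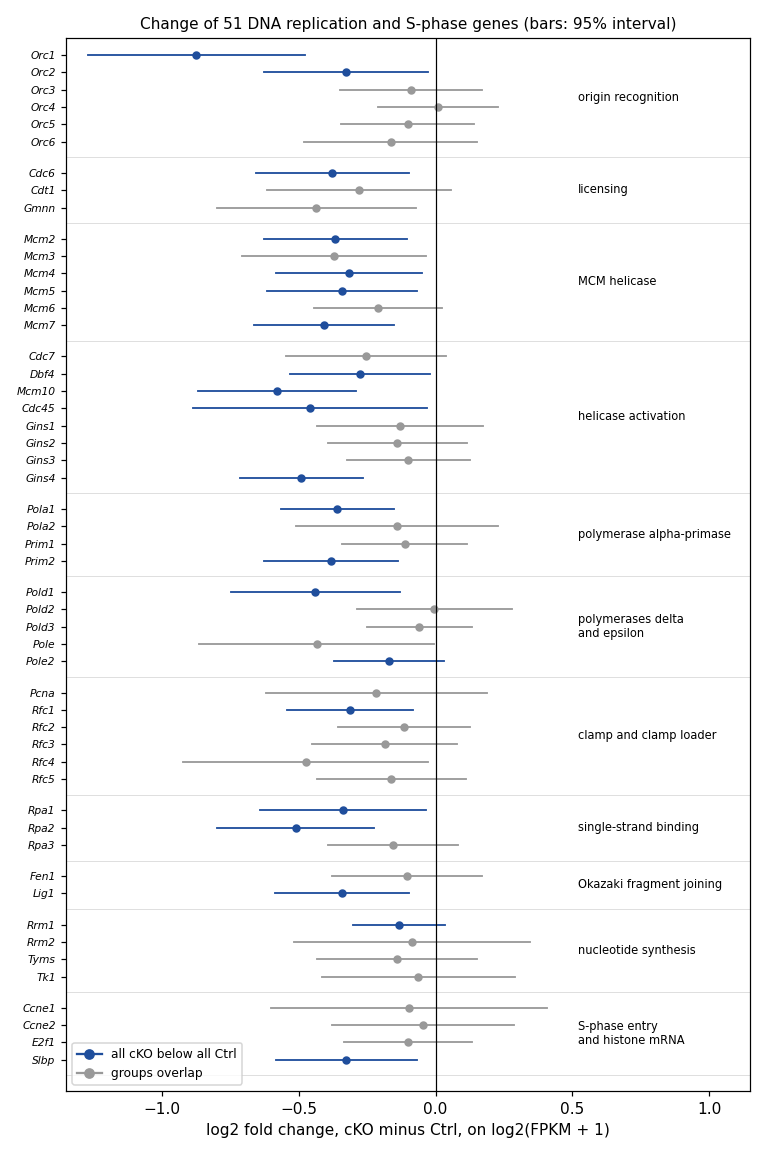
Log2 fold change of cKO minus Ctrl on log2(FPKM + 1) (horizontal axis) of the 51 genes (rows, by role), with bars for the 95% interval and blue for genes with all 3 cKO samples below all 3 Ctrl samples. The points of 50 of 51 genes lie left of 0, from -0.87 for *Orc1*, and the interval of many reaches 0.

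Of the 8 genes of helicase activation, 4 had no overlap between groups, and the median log2 fold change was -0.27. *Mcm10* (chr2:4989714-5012791, minus strand), a fork factor that binds the activated helicase, measured 7.27, 8.33 and 6.14 FPKM across Ctrl and 4.78, 4.02 and 4.67 FPKM across cKO. The groups were clearly apart, with cKO at 62.0% of the Ctrl mean (log2 fold change -0.58, SE 0.123, adjusted p = 0.119). *Gins4* (chr8:23226616-23237659, minus strand), encoding the GINS subunit SLD5, measured 45.9, 55.9 and 52.2 FPKM across Ctrl and 35.7, 34.8 and 38.0 FPKM across cKO. Its values in cKO were tight and all below Ctrl (log2 fold change -0.49, SE 0.0960, adjusted p = 0.105). The other GINS genes differed less, each with overlapping groups. *Gins1* averaged 19.6 ± 2.43 and 17.8 ± 2.33 FPKM in Ctrl and cKO, *Gins2* 9.95 ± 0.471 and 8.98 ± 1.196, and *Gins3* 7.75 ± 0.667 and 7.16 ± 0.494. For *Gins2*, 67.3% of exon bases overlapped *Gse1* on the opposite strand.

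*Cdc45*, which completes the active helicase with GINS, measured 13.2, 19.97 and 11.7 FPKM across Ctrl and 10.4, 9.67 and 10.9 FPKM across cKO (log2 fold change -0.46, SE 0.182, adjusted p = 0.294). Ctrl 2 stood far above the other Ctrl samples, which lay just above cKO. *Dbf4*, the regulatory partner of CDC7, measured 8.88, 11.4 and 9.30 FPKM across Ctrl and 7.73, 7.59 and 8.42 FPKM across cKO (log2 fold change -0.28, SE 0.109, adjusted p = 0.290). Its groups did not overlap. *Cdc7* itself averaged 19.4 ± 1.89 FPKM in Ctrl and 16.2 ± 2.43 in cKO, with cKO 1 inside the Ctrl range.

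**Figure D3:**
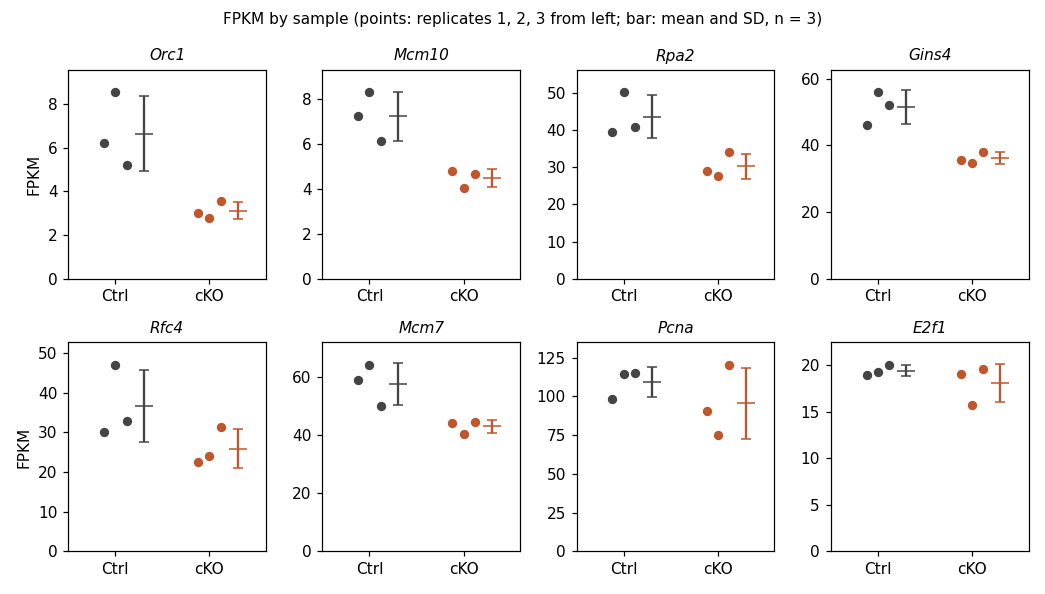
FPKM (vertical axes, from 0) of 8 genes in the 3 Ctrl and 3 cKO samples, with points for replicates and bars for mean and SD (n = 3). *Orc1*, *Mcm10*, *Rpa2*, *Gins4* and *Mcm7* show separate groups, whereas those of *Rfc4*, *Pcna* and *E2f1* overlap.

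Polymerase alpha-primase starts each new strand with a short RNA-DNA primer, and the median log2 fold change of its 4 genes was -0.25. The catalytic subunit gene *Pola1*, on the X chromosome, measured 9.34, 10.2 and 8.80 FPKM across Ctrl and 7.48, 6.96 and 6.95 FPKM across cKO (log2 fold change -0.36, SE 0.0871, adjusted p = 0.149). *Prim2*, the large primase subunit, measured 8.42, 9.96 and 8.65 FPKM across Ctrl and 7.41, 6.15 and 6.49 FPKM across cKO (log2 fold change -0.38, SE 0.104, adjusted p = 0.171). Both genes were separated between groups, and their partners were not. *Pola2*, the accessory subunit, measured 21.9, 22.5 and 16.4 FPKM across Ctrl and 21.7, 16.1 and 16.9 FPKM across cKO. *Prim1*, the catalytic primase subunit, averaged 19.1 ± 1.57 FPKM in Ctrl and 17.6 ± 1.42 in cKO.

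Among the genes of polymerases delta and epsilon (median log2 fold change -0.17), the catalytic subunits had the most negative fold changes. *Pold1*, catalytic in polymerase delta, measured 20.03, 21.6 and 20.01 FPKM across Ctrl and 14.2, 12.6 and 18.2 FPKM across cKO (log2 fold change -0.44, SE 0.132, adjusted p = 0.202). *Pold2*, its second subunit and the most abundant gene of this group, measured 28.2, 27.2 and 25.9 FPKM across Ctrl and 26.1, 23.5 and 32.1 FPKM across cKO, with a 95% interval of -0.29 to 0.28. *Pold1* stood apart between groups and *Pold2* did not. The ratio of *Pold1* to *Pold2* was 0.711, 0.792 and 0.771 in Ctrl and 0.545, 0.538 and 0.568 in cKO, a comparison chosen after the values were seen. *Pold3* averaged 14.6 ± 0.638 FPKM in Ctrl and 14.0 ± 0.799 in cKO. *Pole*, catalytic in polymerase epsilon, averaged 6.63 ± 1.74 FPKM in Ctrl and 4.55 ± 0.548 in cKO, with Ctrl 3 inside the cKO range. *Pole2*, its accessory subunit, measured 10.1, 10.6 and 9.58 FPKM across Ctrl and 9.53, 8.58 and 8.47 FPKM across cKO (log2 fold change -0.17, SE 0.0856, adjusted p = 0.392). The groups of *Pole2* did not overlap but nearly touched.

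PCNA is the ring that tethers polymerases to DNA, and *Pcna* was the most abundant of the 51 genes. It measured 98.4, 114 and 115 FPKM across Ctrl and 90.8, 75.1 and 120 FPKM across cKO, with cKO 3 above all Ctrl samples and a 95% interval of the log2 fold change of -0.62 to 0.19. For *Pcna*, 19.1% of the 50-base stretches also occurred in other genes, most of all in *Pcna-ps2*. Replication factor C loads this ring, and 1 of its 5 genes, *Rfc1*, had no overlap between groups. *Rfc1*, the large subunit, measured 23.9, 27.9 and 22.4 FPKM across Ctrl and 20.2, 19.7 and 19.1 FPKM across cKO (log2 fold change -0.31, SE 0.0976, adjusted p = 0.212). *Rfc4* (chr16:23113943-23127737, minus strand) had the largest difference of the group and measured 30.2, 47.0 and 32.9 FPKM across Ctrl and 22.4, 23.9 and 31.5 FPKM across cKO (log2 fold change -0.47, SE 0.191, adjusted p = 0.298). Its groups overlapped through cKO 3, Ctrl 2 stood far above the rest, and 12.7% of its exon bases overlapped *Eif4a2*. *Rfc2* averaged 14.6 ± 0.471 and 13.5 ± 1.68 FPKM, *Rfc3* 19.0 ± 1.496 and 16.6 ± 2.14, and *Rfc5* 10.7 ± 0.885 and 9.51 ± 1.31 in Ctrl and cKO, all with overlap. Exon bases also overlapped other genes for *Rfc2* (15.1%, *Lat2*) and *Rfc5* (10.7%, *Wsb2*).

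RPA coats single-stranded DNA at the fork, and 2 of its 3 genes had no overlap between groups (median log2 fold change -0.34). *Rpa2* (chr4:132768332-132778752, plus strand), the middle subunit, measured 39.7, 50.3 and 40.9 FPKM across Ctrl and 28.9, 27.8 and 34.1 FPKM across cKO. All cKO values were below all Ctrl values, at 69.3% of the Ctrl mean (log2 fold change -0.51, SE 0.123, adjusted p = 0.145). *Rpa1*, the large DNA-binding subunit, measured 26.1, 24.4 and 23.2 FPKM across Ctrl and 19.5, 15.97 and 22.7 FPKM across cKO (log2 fold change -0.34, SE 0.129, adjusted p = 0.283). *Rpa3*, the small subunit, averaged 37.5 ± 1.48 FPKM in Ctrl and 33.7 ± 3.99 in cKO. *Rpa2* exceeded *Rpa3* in each Ctrl sample, at a ratio of 1.16 ± 0.118, and *Rpa3* exceeded *Rpa2* in each cKO sample, at 0.898 ± 0.0210. This ratio was chosen after the values were seen. For *Rpa3*, 9.48% of the 50-base stretches also occurred in other genes, most of all in *Gm6195*.

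Of the genes that finish the lagging strand, *Lig1*, the ligase that seals Okazaki fragments, measured 30.8, 34.1 and 29.2 FPKM across Ctrl and 24.3, 22.1 and 27.3 FPKM across cKO (log2 fold change -0.34, SE 0.104, adjusted p = 0.205). Its groups did not overlap. *Fen1*, the flap nuclease, was the least abundant of the 51 genes, at 2.26 ± 0.218 FPKM in Ctrl and 2.04 ± 0.263 in cKO, from 65 to 112 reads per sample. The antisense gene *Gm10143* covered 78.8% of its exon bases, so its level is uncertain.

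The nucleotide synthesis genes differed little, with a median log2 fold change of -0.11 that became 0.01 without cKO 2. *Rrm1*, the large subunit of ribonucleotide reductase, measured 29.6, 30.3 and 30.8 FPKM across Ctrl and 28.3, 27.2 and 26.9 FPKM across cKO (log2 fold change -0.13, SE 0.0711, adjusted p = 0.409). The groups did not overlap, at 90.8% of the Ctrl mean. *Rrm2*, the S-phase subunit, averaged 20.9 ± 3.02 FPKM in Ctrl and 19.9 ± 5.25 in cKO, *Tyms*, thymidylate synthase, 13.8 ± 0.444 and 12.6 ± 2.08, and *Tk1*, thymidine kinase, 16.3 ± 0.977 and 15.8 ± 3.25. In these 3 genes cKO 2 was the lowest of the 6 samples and the groups overlapped. Some 5.72% of the 50-base stretches of *Tyms* also occurred in other genes, most of all in *Tyms-ps*.

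The last role group held regulators of S-phase entry and the histone mRNA binding protein, with a median log2 fold change of -0.10 that was -0.25 without cKO 3 and 0.01 without cKO 2. *Slbp*, which binds the stem-loop of histone mRNA, measured 25.4, 28.6 and 24.9 FPKM across Ctrl and 19.8, 18.9 and 23.8 FPKM across cKO (log2 fold change -0.33, SE 0.109, adjusted p = 0.234). Its groups did not overlap, unlike those of the 3 regulators. *E2f1*, an activator of S-phase genes, averaged 19.4 ± 0.545 FPKM in Ctrl and 18.1 ± 2.06 in cKO, with a 95% interval of the log2 fold change of -0.34 to 0.13. The cyclin E genes, whose products activate CDK2 at the start of S phase, averaged 5.14 ± 0.181 and 4.94 ± 1.90 FPKM for *Ccne1* and 8.33 ± 1.29 and 8.01 ± 1.21 FPKM for *Ccne2*. *Ccne1* ranged from 3.22 FPKM in cKO 2 to 6.98 FPKM in cKO 3, the lowest and the highest of the 6 samples. The overlap of *Ccne2* with *Ints8* covered 17.4% of its exon bases.

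Within each group, the same samples were often the highest or the lowest. Ctrl 2 held the highest Ctrl value for 40 of 51 genes, cKO 2 the lowest cKO value for 38 and cKO 3 the highest cKO value for 36. Over all genes tested, Ctrl 2 was highest in its group for 36.7%, cKO 2 lowest for 33.2% and cKO 3 highest for 39.2%. The order of the cKO samples was not particular to the 51 genes. For the 29 G2/M genes these shares were 37.9%, 75.9% and 65.5%, and for the 68 other replication genes 55.9%, 52.9% and 55.9%. Relative to the Ctrl mean, the 51 genes averaged -0.05, 0.12 and -0.07 on the log2 scale across Ctrl, and -0.25, -0.38 and -0.14 across cKO. All cKO averages lay below all Ctrl averages, with cKO 3 nearest to Ctrl.

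**Figure D4:**
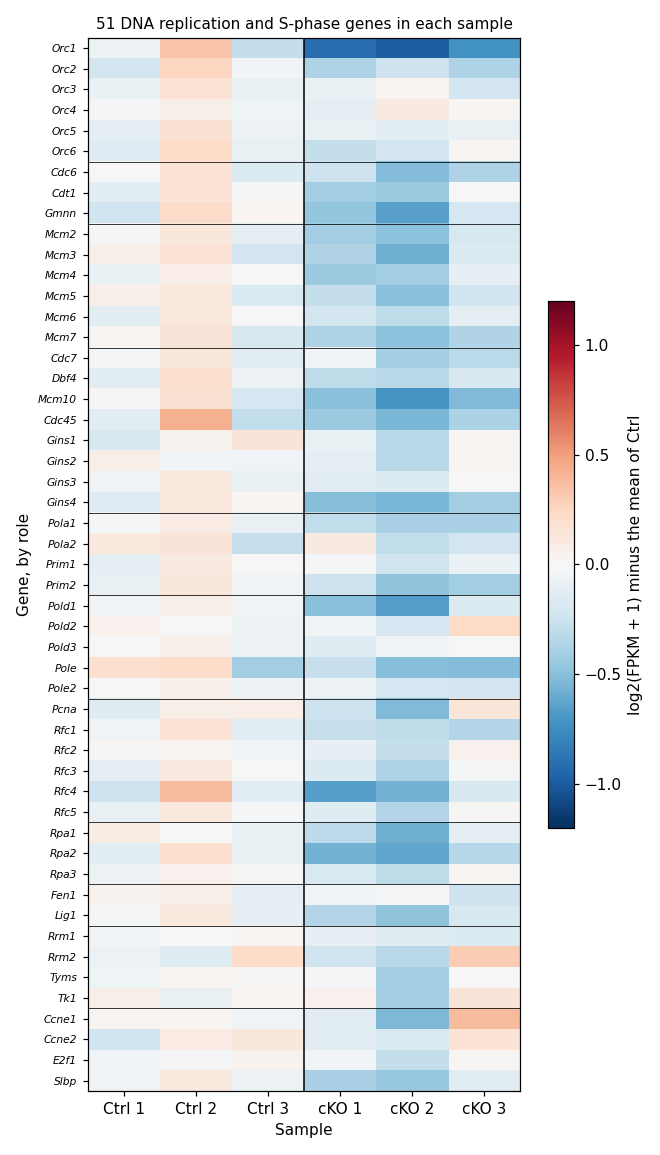
Log2(FPKM + 1) of the 51 genes (rows, by role) in the 6 samples (columns) minus the mean of Ctrl, from blue (lower) to red (higher). The column of Ctrl 2 is mostly red, that of cKO 2 is the most blue, and *Orc1* is the darkest row in cKO.

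The germ-cell markers ordered the cKO samples in another way. They averaged -0.27, 0.63 and -0.36 on the log2 scale across Ctrl, and -1.56, -1.02 and -1.33 across cKO. Ctrl 2 was thus the highest Ctrl sample by both measures, whereas cKO 2 was the lowest cKO sample for the 51 genes and the highest for the germ-cell markers. Sertoli-cell markers averaged 0.12, -0.24 and 0.11 across Ctrl and -0.10, 0.00 and 0.00 across cKO, so they were lowest in Ctrl 2, and 4 of the 16 were lower and 2 higher in cKO without overlap. Peritubular myoid markers (6 genes) averaged -0.02, -0.03 and 0.05 across Ctrl and -0.34, -0.56 and 0.02 across cKO, with cKO 2 lowest and cKO 3 highest as for the 51 genes. Their sum was between 521 and 533 FPKM in Ctrl and between 328 and 511 FPKM in cKO, and 2 of them were lower and 1 higher without overlap. Of the Leydig-cell markers 4 of 9 tested and of the endothelial markers 3 of 6 tested were higher, and of 11 macrophage and 5 erythroid markers 0 were lower or higher without overlap. Over all genes tested, 12.8% were lower and 10.3% higher without overlap. In cKO 1, 2 and 3, endothelial markers averaged 0.28, 0.13 and 0.34, and erythroid markers 0.92, -0.08 and 1.475. Both lists thus had cKO 2 lowest and cKO 3 highest, like the peritubular myoid markers. The Leydig-cell, macrophage, Sertoli-cell and germ-cell markers did not. The part of cell composition in the values of the 51 genes was not tested.

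**Figure D5:**
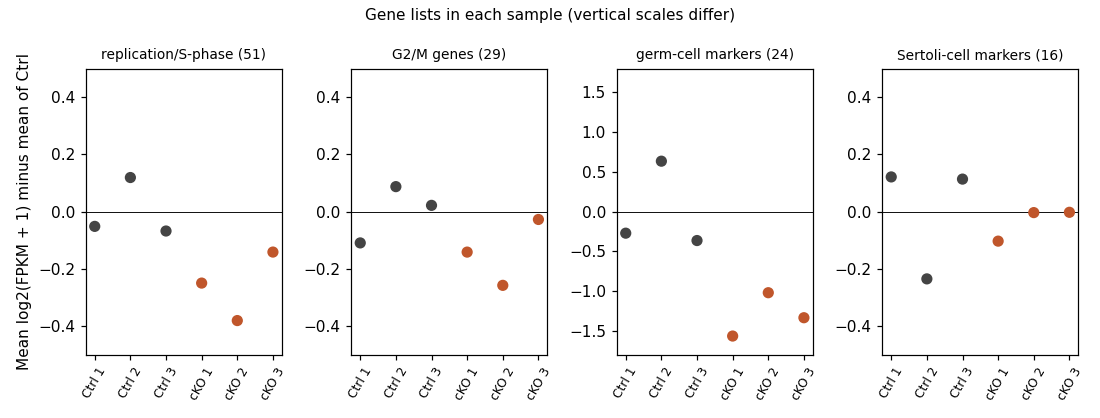
Mean log2(FPKM + 1) minus the mean of Ctrl (vertical axes, which differ in scale) of 4 gene lists in each of the 6 samples. The 51 replication and S-phase genes are lowest in cKO 2 (-0.38), where the germ-cell markers are the highest of the cKO samples (-1.02).

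Other genes of the pathway were read from the same fit. Of 68 further replication genes, 0 were called by limma. At an unadjusted p under 0.05, 19 were lower and 2 higher, where the background was 9.31% lower and 6.6% higher. Without overlap, 23 (33.8%) were lower and 3 higher, where the background was 12.8% below and 10.3% above. The median log2 fold change was -0.14, with 52 lower on average (76.5%, against 49.5% of all genes tested). *Ccnd1*, cyclin D1 of the G1 phase, measured 5.47, 6.13 and 5.27 FPKM across Ctrl and 2.27, 3.19 and 3.01 FPKM across cKO (log2 fold change -0.80, SE 0.124, adjusted p = 0.0864). It was called in the protein-coding fit (adjusted p = 0.0250), with sample weights (adjusted p = 0.0481) and by limma voom (adjusted p = 0.0397). Some 23.4% of the exon bases of *Ccnd1* overlapped *LTO1* on the opposite strand, so its reads there cannot be assigned with certainty. *Hells*, a chromatin remodeller, averaged 31.3 ± 10.3 FPKM in Ctrl and 17.4 ± 2.15 in cKO (log2 fold change -0.77, adjusted p = 0.177), and *Wdhd1*, which couples the helicase to polymerase alpha, 12.5 ± 3.36 and 7.04 ± 0.142 (-0.72, adjusted p = 0.132). Smaller differences without overlap were those of *Chtf18* of an alternative clamp loader (-0.61), the helicase gene *Recql4* (-0.58), the histone chaperone gene *Asf1b* (-0.56), the checkpoint mediator gene *Clspn* (-0.46), *Mcm8* of another MCM complex (-0.44) and the origin binding gene *Lrwd1* (-0.36), with adjusted p between 0.148 and 0.185. *Cdkn1b*, the CDK inhibitor p27, lay on the other side, at 13.1, 13.0 and 15.1 FPKM in Ctrl and at 17.6, 18.3 and 17.0 FPKM in cKO (log2 fold change 0.34, adjusted p = 0.163). It was joined by *Ccnd3* (0.20) and *E2f6* (0.24) as the only genes of this list higher without overlap.

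G2/M genes, whose products act in mitosis, were examined beside them, since both groups are expressed in dividing cells. Of 29, 0 were called by limma or by limma voom. At an unadjusted p under 0.05 in limma, 5 were lower and 0 higher, where the background was 9.31% lower and 6.6% higher. Without overlap, 7 (24.1%) were lower and 0 higher, where the background was 12.8% below and 10.3% above. The median log2 fold change was -0.10, with 23 lower on average (79.3%, against 49.5% of all genes tested). The G2/M genes past an unadjusted p of 0.05 without overlap were *Ccnb1* (cyclin B1, -0.42), *Bub1* (-0.42) and *Bub1b* (-0.32) of the spindle checkpoint, *Cenpf* (a kinetochore protein, -0.37) and *Anln* (cytokinesis, -0.30), with adjusted p between 0.205 and 0.305. For *Ccnb1*, 23.4% of the 50-base stretches also occurred in other genes, most of all in *Ccnb1-ps*. The proliferation marker *Mki67* averaged 37.5 ± 0.673 FPKM in Ctrl and 37.8 ± 2.91 in cKO, and the topoisomerase gene *Top2a* 62.7 ± 6.06 and 59.4 ± 3.88. The medians of the lists (-0.22, -0.14 and -0.10) are given side by side, and their difference was not tested.

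The 51 genes lay on 14 chromosomes. Chromosome 5 held 11 of them (21.6%) against 6.32% of the genes tested, among them *Mcm7*, *Dbf4*, *Cdc7*, *Pole*, *Tyms*, *Slbp* and *Orc5* and 4 of the 5 replication factor C genes. The exception was *Rfc4* on chromosome 16. Of the 11 genes on chromosome 5, *Mcm7*, *Dbf4*, *Rfc1* and *Slbp* were lower with no overlap between groups. Of all genes tested, 12.8% were lower in this way.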

How the data were processed

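Polyadenylated RNA of 6 testis samples was sequenced by the authors, aligned to mm10 with HISAT2 2.0.5 and counted per gene with featureCounts. The authors deposited FPKM, computed from read count and gene length, for 54532 genes, and tested counts with DESeq2, whose results were not used here. The deposited gene length, in bases, gave whole reads for 100% of values within 0.01 of a whole number. At 1 kb, 3 reads correspond to 0.158 to 0.194 FPKM, a floor that covers counting error only. Groups came from the sample labels. Because the unit was FPKM, limma 3.58.1 (R 4.3.3) with a mean-variance trend was fitted to log2(FPKM + 1), with a pseudocount of 1, for the 16206 genes averaging 0.5 FPKM or more, two-sided, with Benjamini-Hochberg adjustment over all of them and a threshold of 0.05. The fit was tested on simulated data. Replicates correlated across genes at Pearson r between 0.970 and 0.981. Alternatives were another pseudocount (0.1), a stricter filter (mean of 1 FPKM), all genes above 0, protein-coding genes only, TPM, quantile normalization, no trend, sample weights, a replicate block, limma voom on recovered reads, and leaving out each sample. Coordinates and exon overlaps were from GENCODE mouse release 21, and promoter windows from RefSeq GRCm38.p6.

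The genes, role groups and lists were chosen with earlier results of these data known. Each of the 51 genes was to be named with its group means, which values per sample replace in the text for genes without overlap between groups, the most abundant of each role group and the 5 with the largest changes. Of the other lists, at most 10 genes with the lowest p, an unadjusted p under 0.05 and no overlap were named by this rule. The genes *Ccnd3*, *E2f6*, *Mki67* and *Top2a*, and the promoters printed, were chosen after their values were seen.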

Additional observations from a re-analysis of the deposited data

How the results depend on the processing

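Across all genes tested, the calls lower and higher were 0 and 0 in the planned fit, 176 and 37 with protein-coding genes only, 1 and 4 on TPM, 0 and 1 without the mean-variance trend, 55 and 13 with sample weights, 84 and 14 with the replicate block and 58 and 22 with limma voom. Leaving out 1 sample gave 0 to 15 lower and 0 to 3 higher. Of the 51 genes, 1 (*Orc1*) was called with protein-coding genes only, and of the 68 other replication genes 1 (*Ccnd1*) was called with protein-coding genes only, with sample weights and with limma voom. *Srsf1* passed the threshold at -0.85 with protein-coding genes only and with the replicate block, at -0.86 on TPM, at -0.88 with sample weights and at -0.85 with limma voom. The cause of these differences was not tested. The protein-coding fit held fewer genes, 13204, and its unadjusted p-values differed as well. In limma, 1469 of these genes were lower at an unadjusted p under 0.05 there, against 1334 of them in the planned fit.

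With 1 sample left out, 21 to 36 of the 51 genes were lower without overlap. At an unadjusted p under 0.05, 12 to 24 were lower. Over all 16206 genes tested, the same counts were 2581 to 3139 and 1008 to 1492. In these fits the median of the group of S-phase entry and histone mRNA lay between -0.25 and 0.00611. Of 816 values of the 51 genes under 16 alternatives, 800 kept their sign. The 16 that turned lay in 6 genes near 0. *Orc4* was -0.0147 with sample weights and *Pold2* 0.000435 with limma voom. With 1 sample left out, *Orc4* lay between -0.0446 and 0.0694, *Pold2* between -0.13 and 0.0932, *Rrm2* between -0.28 and 0.0349, *Tk1* between -0.17 and 0.11, *Ccne1* between -0.33 and 0.13, and *Ccne2* between -0.17 and 0.0218. Deviations of same-numbered samples correlated at 0.0663, 0.0162 and 0.0882. Each Ctrl sample correlated more with the cKO sample of its own number than with the other cKO samples. With 3 samples a group, these values cannot decide whether replicate numbers paired the samples. Under the replicate block 0 of the 51 genes were called. Of the 51, 27 were lower without overlap on TPM, 24 with quantile normalization and 20 with limma voom, against 21 in the planned fit. Of the 16206 genes tested, 2036, 1903, 1968 and 2071 were lower in this way. At 3 samples a group, the 95% intervals of 23 of the 51 genes excluded 0. These intervals are unadjusted, and the 23 genes are those with an unadjusted p under 0.05 in limma. At that cut, 9.31% of all genes tested were lower and 6.6% higher.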
